A study of Homo sapiens with 8 samples.

Results

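Collagens, laminins and integrins are the structural proteins of the extracellular matrix and the receptors by which cells hold on to it. Their genes were followed here in H9 human embryonic stem cells (hESCs) kept in culture for increasing numbers of passages. Members were chosen by name, as every protein-coding gene whose symbol is that of a collagen chain, a laminin chain (LAMA, LAMB or LAMC) or an integrin subunit (ITGA or ITGB). This gave 82 of the 60675 genes in the deposited tables, of which 44 were collagen genes, 12 laminin genes and 26 integrin genes.

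A collagen molecule is a triple helix of alpha chains. Fibrillar collagens form cables, network collagens such as collagen IV form sheets, and FACIT collagens attach to the surface of fibrils. Laminins are trimers of an alpha, a beta and a gamma chain, and together with collagen IV they build the basement membrane on which epithelial and pluripotent cells sit. Integrins are alpha-beta pairs in the cell membrane that bind these proteins outside the cell and connect to the actin cytoskeleton inside it, and the pair of alpha 6 and beta 1 is a well-known laminin receptor of hESCs.

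RNA had been sequenced from 4 isogenic hESC lines named P1 (passage 40s), P2 (passage 100s), P3 (passage 200s) and P4 (passage 300s), with 2 samples per line. All come from H9 (WA09), an established line, and were grown without feeder cells in mTeSR1 medium on Matrigel, a basement membrane extract that itself supplies laminin and collagen IV protein. P3 and P4 hESCs carry a copy number gain on the long arm of chromosome 20, so in the late lines passage and this gain cannot be told apart. Each stage is 1 culture history, and nothing states that its 2 samples were separate cultures, so the p-values measure only the spread between these samples, which may be technical. Comparisons were made between the late lines (P3 and P4) and the early lines (P1 and P2), and between single lines.

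The libraries held 26874899 to 38095600 expected counts. Mitochondrial genes took 17.2% to 18.5% of the counts in P1 replicate 2, P3 replicate 1 and P4 replicate 1 and 5.89% to 9.84% in the other 5 libraries. P1 replicate 2 stood apart for the members, which took 0.742% of its counts against 0.369% to 0.508% in the other 7 libraries, so values that moved by over 1.5 times or lost a call without it, among the genes refitted one sample at a time, are given with and without it. The 9 pluripotency markers summed to 3347 to 4820 TPM (RSEM's measure of a transcript's share, scaled by its length) in early samples and 3231 to 4919 TPM in late samples. Of 8 fibroblast and mesenchymal markers, 4 stayed below 1 TPM in every sample and FAP was listed at 0, and the list summed to 11.3 to 17.3 TPM in early and 8.21 to 11.5 TPM in late samples. The 6 trophoblast and amnion markers summed to 12.1 to 18.6 TPM in early and 6.31 to 12.1 TPM in late samples. The 6 endoderm markers spanned 6.30 to 7.12 TPM and 3 to 12.9 TPM, and the 3 endothelial markers, mostly KDR, 59.7 to 73.3 TPM and 28 to 84.9 TPM. Mesoderm, neural and blood markers each summed to less than 4 TPM in every sample. Sums can hide single markers. By the edgeR test described below, the pluripotency marker PODXL (log2 fold change -0.65, adjusted p = 0.028) and the mesenchymal PDGFRB (-0.90, adjusted p = 0.018) were lower in late lines. The mesenchymal POSTN (1.34, adjusted p = 0.040) and the neural DCX (0.75, adjusted p = 0.034) were higher. The part of the markers in the results was not tested, and in bulk RNA fewer cells of a type and less RNA per cell cannot be told apart.

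Collagen genes had a lower summed level in the late lines. They summed to 812 and 1330 TPM in P1, 779 and 844 TPM in P2, 490 and 564 TPM in P3 and 625 and 652 TPM in P4 hESCs. In TPM all late samples lay below all early samples. The late mean of 583 ± 72.2 TPM (SD, n = 4) was 0.619 times the early mean of 941 ± 261 TPM (SD, n = 4), or 0.718 times without P1 replicate 2. This separation is for TPM only. In counts scaled to library size, early and late samples overlapped for the 5 highest collagen genes, COL18A1, COL1A1, COL6A1, COL6A2 and COL1A2. Laminin genes summed to 295 and 483 TPM in P1, 248 and 278 TPM in P2, 156 and 173 TPM in P3 and 248 and 251 TPM in P4 hESCs. P3 hESCs were lowest and the P4 samples reached the level of the lowest early sample, and the ratio of late to early was 0.635, or 0.756 without P1 replicate 2. Integrin genes summed to 500 to 540 TPM in early and 476 to 620 TPM in late samples, a ratio of 1.06. In TPM that total joined opposite shifts, as alpha genes summed to 227 to 264 TPM in early and 136 to 197 TPM in late samples. The alpha shift depended on the scale. In counts scaled to library size, early and late samples overlapped for ITGA3, ITGA5, ITGA6 and ITGAV. On that scale ITGA7 was lower and ITGAE higher in every late sample. Beta genes summed to 272 to 286 TPM and 340 to 424 TPM. These sums are descriptions with no test. The median of all genes tested was itself shifted by -0.14 on the log2(TPM + 0.1) scale in the late lines.

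**Figure D1:**
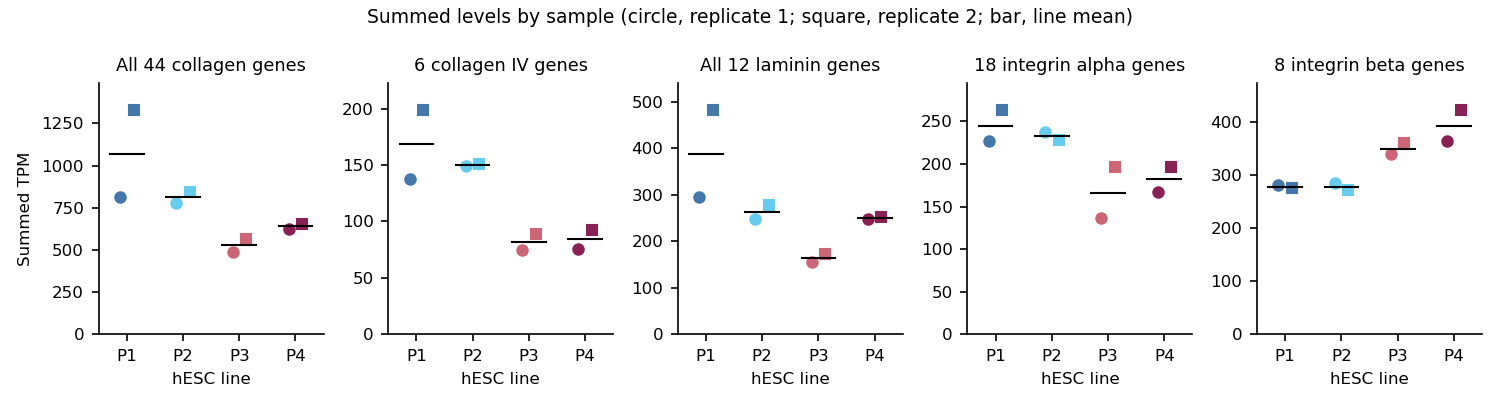
Summed TPM of the 44 collagen, 6 collagen IV, 12 laminin, 18 integrin alpha and 8 integrin beta genes (vertical axes, each from 0) by hESC line, with circles for replicate 1, squares for replicate 2 and bars for the mean of a line. Collagen IV genes sit at 138 to 199 TPM in P1 and P2 and at 74.2 to 92.5 TPM in P3 and P4, whereas integrin beta genes sit at 272 to 286 TPM in P1 and P2 and at 340 to 424 TPM in P3 and P4.

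A few genes carried most of each family's RNA. Over the 8 samples 30 members averaged at least 10 TPM, 24 between 1 and 10 TPM and 28 below 1 TPM. COL18A1 (129 TPM), which encodes a basement membrane collagen, COL1A1 (86.0 TPM) and COL6A1 (80.8 TPM) led the collagens. LAMA5 (68.3 TPM), LAMB2 (64.6 TPM) and LAMC1 (58.8 TPM) led the laminins, and ITGB1 (212 TPM) and ITGB5 (108 TPM) the integrins. COL3A1, a fibrillar collagen abundant in mesenchymal tissue, lay between 0.00 and 0.02 TPM in all samples.

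Among single genes, lower values in the late lines were more common than higher ones. Genes were tested with edgeR (quasi-likelihood, Benjamini-Hochberg adjusted over 19499 genes), and those with more than a 1-unit log2 fold change in either direction at adjusted p below 0.01 were called DEGs. The filter on low counts kept 75 members. Of these, 5 members (6.67%) fell in P3 and P4 compared with P1 and P2 hESCs, against 1.14% of all genes tested, and 2 members (2.67%) rose, against 1.06%. At adjusted p below 0.05 whatever the fold, 17 members were lower (background 4.04%) and 4 were higher (background 3.50%). In 28 members (37.3%) every late sample was below every early sample (background 9.19%), and in 4 (5.33%) every late sample was above (background 8.38%). The log2 fold change was negative in 61 members and positive in 14, with a median of -0.57 beside 0.0059 over all genes tested. Without P1 replicate 2 the median was -0.27 beside 0.021, and 3 members remained DEGs, namely COL4A6, COL15A1 and COL8A1. With the 5 libraries of low mitochondrial share alone, no member was a DEG, and their median was -0.44. On both TPM scales COL12A1, COL15A1, COL8A1 and LAMA4 were not DEGs.

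**Figure D2:**
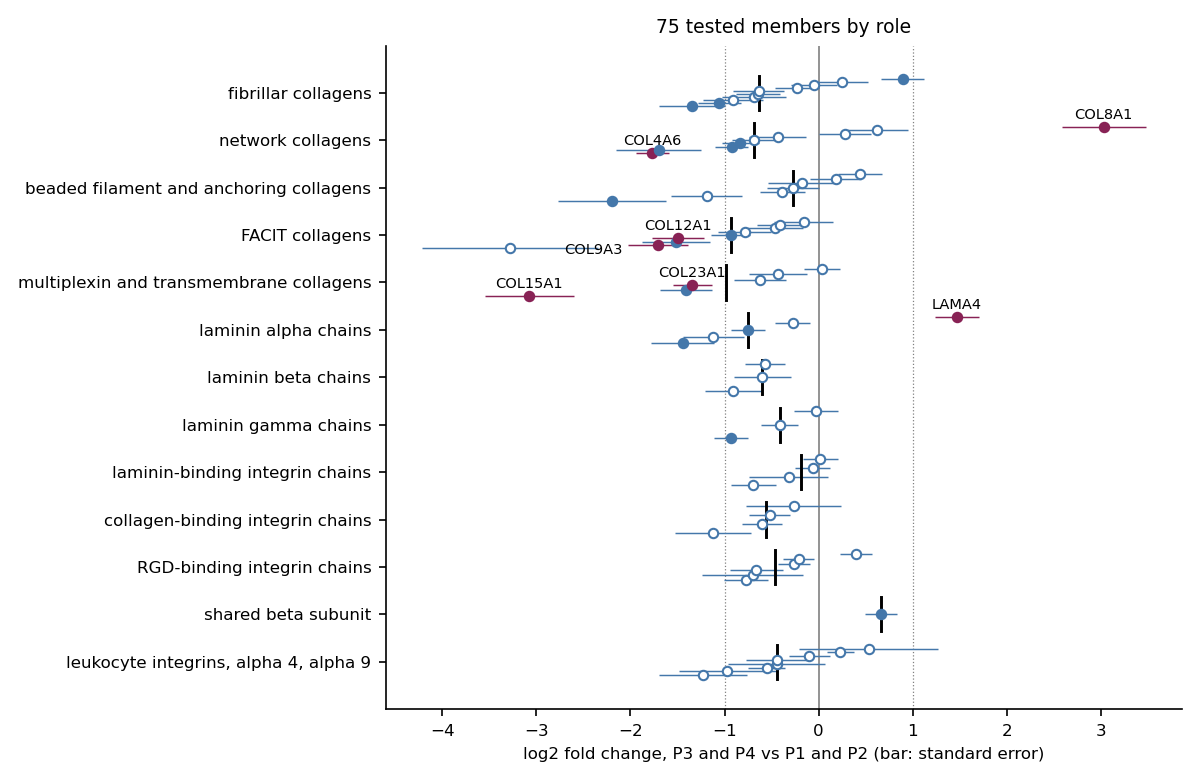
Log2 fold change of the 75 tested members in P3 and P4 against P1 and P2 hESCs (horizontal axis, bars for the standard error) in rows by role, with a vertical bar for each row's median. Purple points are the DEGs, filled blue points reach adjusted p below 0.05 only, and open points neither, and 61 of the 75 points lie left of 0, with COL8A1 at 3.03 and LAMA4 at 1.47 farthest to the right.

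The 7 members left out by the filter were COL3A1, COL6A5, COL19A1, ITGA8, ITGAD, ITGB6 and LAMB4, none with more than 9 counts in a sample. COL6A5, a beaded filament collagen, had 6, 6, 8 and 9 counts in the early samples and 1, 0, 0 and 0 in the late samples.

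Of the 9 network collagens, COL4A6 fell and COL8A1 rose. COL4A6 encodes the alpha 6 chain of collagen IV and COL4A5 the alpha 5 chain that pairs with it. The genes lie head to head on chromosome X, COL4A5 at 108439844 to 108697545 on the plus strand and COL4A6 at 108155607 to 108439497 on the minus strand (GRCh38), with 346 bases between them. The sequences before their starts are shown because the genes share this stretch, and their windows overlap by 121 bases. They come from RefSeq (GRCh38.p14), are written 5′ to 3′ on each gene's own strand, and leave out 39 exon bases for COL4A6. Capitals mark the CCAAT box (CCAAT) on either strand, found at 2 places for COL4A5 (chrX:108439588-108439837, plus strand) and 3 for COL4A6 (chrX:108439498-108439708, minus strand).
COL4A5: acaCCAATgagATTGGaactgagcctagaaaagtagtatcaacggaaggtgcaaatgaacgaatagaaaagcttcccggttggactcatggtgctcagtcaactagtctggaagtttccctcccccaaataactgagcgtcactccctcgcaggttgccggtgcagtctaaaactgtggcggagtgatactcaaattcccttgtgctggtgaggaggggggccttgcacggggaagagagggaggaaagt
COL4A6: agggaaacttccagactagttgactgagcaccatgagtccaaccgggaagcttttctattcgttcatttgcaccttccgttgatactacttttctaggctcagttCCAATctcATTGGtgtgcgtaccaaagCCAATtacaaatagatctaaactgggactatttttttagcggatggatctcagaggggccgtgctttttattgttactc
The CCAAT box was found in 22.4% of the 58 members with a window and in 33.0% of all 27305 windows of 250 bases. The GC box (GGGCGG), the letters TATAAA of the TATA element and the MCAT element (CATTCC) were not found in these stretches, which describes their letters only.

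COL4A6 had 75.0 and 129 CPM (counts scaled to library size) in P1, 97.0 and 105 in P2, 30.9 and 29.4 in P3 and 25.5 and 33.5 in P4 hESCs. The late samples were all below the early ones and close to each other. Its log2 fold change was -1.77 (standard error 0.18, adjusted p = 2.1e-04), and it was a DEG in all 8 fits that left out 1 sample, at -1.63 without P1 replicate 2. COL4A5 had 96.6 and 152 CPM in P1, 102 and 102 in P2, 60.0 and 71.1 in P3 and 50.3 and 57.1 in P4 hESCs. Here too the groups did not overlap, but the difference of -0.93 on the log2 scale (standard error 0.18, adjusted p = 0.010) was short of a DEG. COL4A6 made up 13.5% ± 1.87 of collagen IV TPM in early and 8.03% ± 1.43 in late samples (SD, n = 4), while the share of COL4A5 was 24.1% ± 2.63 and 23.6% ± 6.77.

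COL4A1 and COL4A2 encode the chains of the most widespread collagen IV trimer. COL4A1 had 44.3 ± 8.82 TPM in early and 23.1 ± 2.63 TPM in late samples (SD, n = 4), with a log2 fold change of -0.83 (adjusted p = 0.030), or -0.58 (adjusted p = 0.043) without P1 replicate 2. COL4A2 had 54.8 ± 14.6 and 32.0 ± 2.88 TPM (SD, n = 4), with a log2 fold change of -0.68 (adjusted p = 0.098), or -0.38 without P1 replicate 2.

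COL8A1, a short-chain network collagen, was at 9, 8, 2 and 9 counts in the early and 57, 68, 34 and 52 counts in the late samples. In edgeR it rose by 3.03 on the log2 scale (standard error 0.45, adjusted p = 0.0025), kept as a DEG in all 8 fits that left out 1 sample. On the TPM scale the samples lay closer, at 0.09 to 0.20 TPM in early and 0.39 to 0.82 TPM in late samples, while the effective transcript length assigned to the gene was 674 to 2380 bases in early and 2582 to 4266 bases in late samples. It was no DEG on that scale.

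The FACIT collagens had a negative log2 fold change in 9 of 9 tested genes (100%), against 49.5% of all genes tested, with a median of -0.94. All 9 were negative in P2 against P1 hESCs too, with a median of -0.54, so the shared sign was not particular to the late lines. COL9A3, a chain of collagen IX, had 88.8 and 163 CPM in P1, 71.1 and 98.5 in P2, 21.6 and 20.5 in P3 and 45.2 and 41.6 in P4 hESCs. The late samples were below all early ones, P3 more so than P4. Its log2 fold change was -1.71 (standard error 0.32, adjusted p = 0.0084), and the call was lost in each of the 8 fits that left out 1 sample (-1.42, adjusted p = 0.022, without P1 replicate 2). Its exons overlap those of TCFL5 on the other strand, and whether counting used strand is not given in the sources used here. COL12A1, a collagen of fibril surfaces, had 9.60 and 9.14 CPM in P1, 8.55 and 8.74 in P2, 1.93 and 2.40 in P3 and 3.91 and 4.58 in P4 hESCs. The early samples were nearly level and the groups did not overlap. The fitted difference, -1.49 on the log2 scale (standard error 0.28, adjusted p = 0.0084), remained a DEG in 1 of the 8 fits that left out 1 sample. COL14A1, named after its values were seen, as are LAMA3, COL5A2, ITGB4 and COL6A5, was at -0.94 (adjusted p = 0.023).

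COL22A1, a FACIT collagen of tissue junctions, had 252 and 421 counts in P1, 310 and 302 in P2, 33 and 94 in P3 and 0 and 0 in P4 hESCs. The level thus differed between the late lines as well as from the early ones. Against a floor of 3 counts over a library, P4 hESCs were at least 99.5-fold lower than P1 hESCs and at least 17.8-fold lower than P3 hESCs. Taken by single samples, the bounds were 70.1-fold and 129-fold for P1 replicates 1 and 2 and 10.1-fold and 25.5-fold for P3 replicates 1 and 2. With both late lines in 1 group, their spread was wide and the log2 fold change of -3.28 had an adjusted p of 0.056.

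Of the 6 multiplexin and transmembrane collagens 2 fell. COL15A1, a multiplexin of basement membranes related to COL18A1, had 26, 53, 28 and 27 counts in the early and 4, 4, 4 and 2 counts in the late samples. In edgeR the log2 fold change was -3.07 (standard error 0.47, adjusted p = 0.0030), and the call was lost without P3 replicate 2 or P4 replicate 1. The late mean was 0.115 times the early mean in CPM but 0.269 times in TPM (0.27 ± 0.0693 TPM early and 0.0725 ± 0.0377 TPM late, SD, n = 4). COL23A1, a transmembrane collagen, had 19.5 and 25.2 CPM in P1, 19.9 and 23.5 in P2, 7.36 and 6.47 in P3 and 9.13 and 11.8 in P4 hESCs. The fitted change was -1.34 on the log2 scale (standard error 0.21, adjusted p = 0.0030), with an adjusted p of 0.011 without P1 replicate 2, and the call was lost too without P2 replicate 2 or P4 replicate 1. COL13A1, also transmembrane, was at -1.41 (adjusted p = 0.011). COL18A1 had 162 ± 61.0 TPM in early and 95.5 ± 11.5 TPM in late samples (SD, n = 4), with a log2 fold change of -0.63 (adjusted p = 0.19), or -0.23 without P1 replicate 2.

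The window before the start of COL12A1 is shown with that of LAMA5, the main laminin alpha gene described next, as examples that differ in GC content. Both come from RefSeq (GRCh38.p14), on the minus strand, for COL12A1 at chr6:75206054-75206303 and for LAMA5 at chr20:62367313-62367562. Capitals mark the GC box (GGGCGG) and the MCAT element (CATTCC) on either strand.
COL12A1: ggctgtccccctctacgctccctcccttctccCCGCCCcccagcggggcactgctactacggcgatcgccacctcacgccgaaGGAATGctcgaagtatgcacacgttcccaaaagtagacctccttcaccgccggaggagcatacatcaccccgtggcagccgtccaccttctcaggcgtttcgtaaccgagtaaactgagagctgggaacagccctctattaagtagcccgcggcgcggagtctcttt
LAMA5: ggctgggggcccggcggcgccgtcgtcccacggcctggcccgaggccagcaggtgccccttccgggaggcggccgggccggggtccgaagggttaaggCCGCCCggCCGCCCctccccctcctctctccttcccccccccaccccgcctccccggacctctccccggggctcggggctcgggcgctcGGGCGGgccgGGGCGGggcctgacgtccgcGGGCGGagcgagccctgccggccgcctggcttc
The COL12A1 window held 1 GC box and 1 MCAT element at 61.2% GC, and the LAMA5 window held 5 GC boxes at 82.8% GC, beside a median of 58% GC over all windows. GC boxes were found in 53.4% of member windows and 42.3% of all windows, and MCAT elements in 8.62% and 11.9%.

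None of the 10 tested fibrillar collagens was a DEG. COL1A1, a chain of collagen I, had 113 ± 25.7 TPM in early and 59.1 ± 5.55 TPM in late samples (SD, n = 4), yet its log2 fold change from counts was -0.64 (adjusted p = 0.17), or -0.27 without P1 replicate 2. COL1A2, its partner chain, was at -0.23 (adjusted p = 0.58), COL2A1 at -0.69 (adjusted p = 0.23) and COL5A1 at -0.64 (adjusted p = 0.11). Without P1 replicate 2 these were -0.0068, -0.26 and -0.40. COL11A1, a minor chain of cartilage fibrils, was at -1.05 (adjusted p = 0.018) and COL11A2 at -1.34 (adjusted p = 0.040), or -0.81 (adjusted p = 0.036) and -0.90 (adjusted p = 0.093) without P1 replicate 2. COL5A2, which assembles into collagen V, was the only fibrillar gene that was higher at adjusted p below 0.05, at 0.89 (adjusted p = 0.038). COL6A2, a beaded filament collagen, was at 0.18 (adjusted p = 0.71), or 0.55 without P1 replicate 2, and its share of collagen TPM was 7.22% ± 0.524 in early and 12.8% ± 0.958 in late samples (SD, n = 4).

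**Figure D3:**
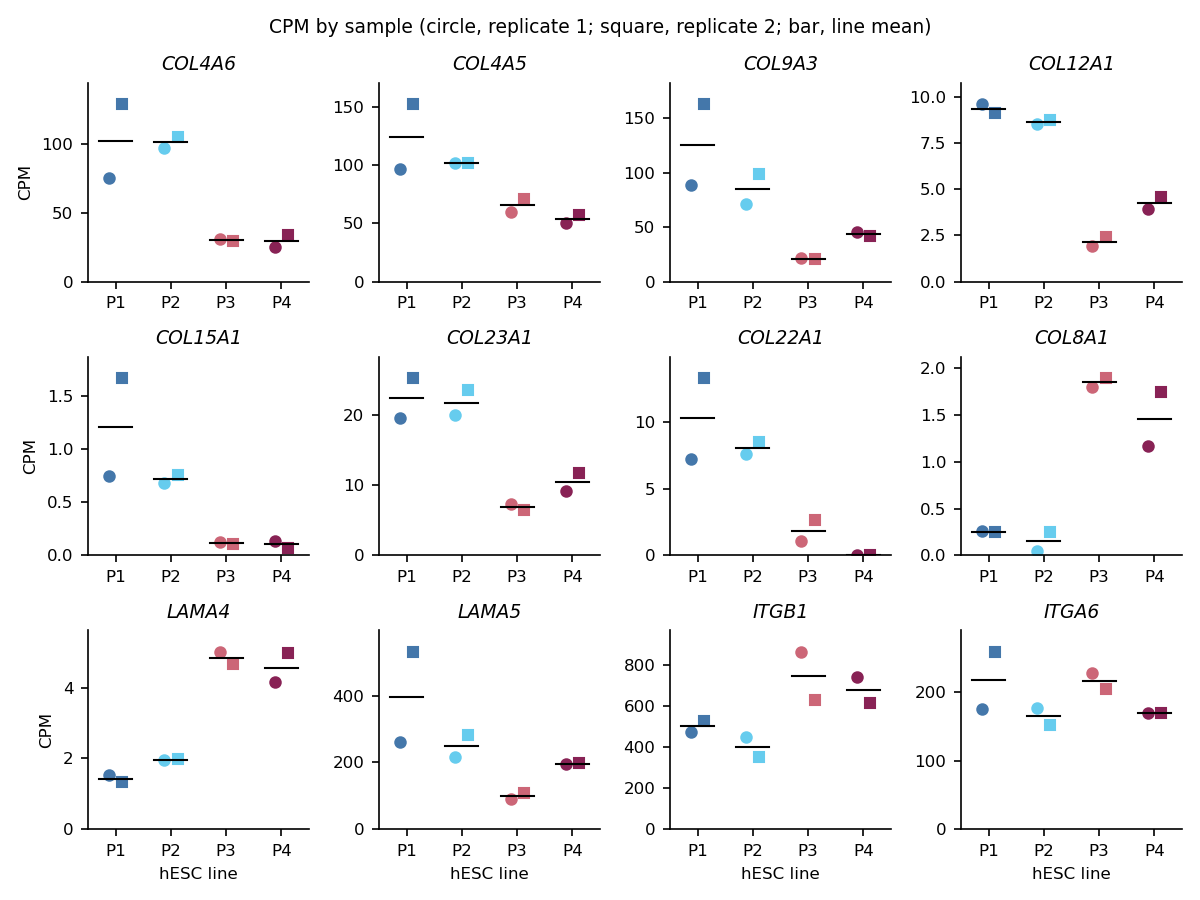
CPM of 12 members (vertical axes, each from 0) by hESC line, with circles for replicate 1, squares for replicate 2 and bars for the mean of a line. COL4A6 lies at 75.0 to 129 CPM in P1 and P2 and at 25.5 to 33.5 CPM in P3 and P4, and LAMA4 at 1.32 to 1.99 CPM and 4.15 to 5.02 CPM.

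Among the laminin genes, LAMA4 rose and no gene fell. LAMA4 encodes the alpha 4 chain, typical of vessel and mesenchymal basement membranes. It had 1.52 and 1.32 CPM in P1, 1.95 and 1.99 in P2, 5.02 and 4.69 in P3 and 4.15 and 4.98 in P4 hESCs. The late samples were all above the early ones, by 1.47 on the log2 scale (standard error 0.23, adjusted p = 0.0036). The call was lost when any P1 or P2 sample was left out (adjusted p = 0.010 without P1 replicate 2), and the gene stayed at a mean of 1.74 TPM, far below LAMA5.

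LAMA5, the alpha chain of laminin-511, had 260 and 532 CPM in P1, 216 and 281 in P2, 89.5 and 110 in P3 and 195 and 198 in P4 hESCs. The late samples were below the early ones, with P4 near P2. Its log2 fold change of -1.12 had an adjusted p of 0.058, and was -0.77 without P1 replicate 2. LAMA5 exons overlap those of ADRM1 and LAMA5-AS1 on the other strand. LAMA1, the alpha chain of laminin-111, had 26.8 ± 6.69 TPM in early and 15.6 ± 2.95 TPM in late samples (SD, n = 4), at -0.75 (adjusted p = 0.028), or -0.59 (adjusted p = 0.061) without P1 replicate 2. LAMA3, the alpha 3 chain of epithelial laminins, was at -1.44 (adjusted p = 0.026).

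The common beta and gamma chains did not pass the test. LAMB1 was at -0.57 (adjusted p = 0.13), LAMB2 at -0.60 (adjusted p = 0.24) and LAMC1 at -0.41 (adjusted p = 0.22). Without P1 replicate 2 the values were -0.27, -0.14 and -0.27. LAMA5 made up 69.9% to 78.8% of laminin alpha TPM in early samples, 52.7% in P3 replicate 1 and 72.4% to 74.7% in the other late samples. LAMC1 made up 82.1% ± 2.81 of gamma chain TPM in early and 81.4% ± 5.12 in late samples (SD, n = 4).

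No integrin gene was a DEG between late and early lines. An adjusted p under 0.05 was found for 1 of 23 (4.35%), against 7.54% of all genes tested, so that count did not exceed the background. The log2 fold change was negative in 18 of the 23 (78.3%), against 49.5% of all genes tested. Its median was -0.44, beside 0.0059 over all genes tested. The 1 gene at adjusted p under 0.05 was ITGB1, the beta 1 subunit shared by the collagen and laminin receptors. It had 475 and 527 CPM in P1, 447 and 349 in P2, 864 and 630 in P3 and 742 and 614 in P4 hESCs. Every late sample was above every early one, by 0.66 on the log2 scale (standard error 0.17, adjusted p = 0.037), or 0.75 without P1 replicate 2. The adjusted p of ITGB1 ranged from 0.024 to 0.10 with 1 sample left out and from 0.0043 to 0.17 in the other alternatives. ITGB1 made up 61.7% ± 5.07 of integrin beta TPM in early and 68.0% ± 2.41 in late samples (SD, n = 4).

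The alpha subunits that bind laminin gave no call. ITGA6 had 175 and 259 CPM in P1, 177 and 152 in P2, 229 and 205 in P3 and 170 and 170 in P4 hESCs. The groups overlapped, and its log2 fold change of 0.02 (adjusted p = 0.96) was 0.20 without P1 replicate 2 and turned to -0.26 on the log2(TPM + 1) scale. ITGA7, a laminin receptor subunit known from muscle, had 80.7 ± 15.7 TPM in early and 44.1 ± 14.2 TPM in late samples (SD, n = 4), at -0.69 (adjusted p = 0.098), or -0.39 without P1 replicate 2. ITGA3 was at -0.06 (adjusted p = 0.86), or -0.02 without P1 replicate 2. The collagen-binding ITGA1 and ITGA2 were at -0.60 (adjusted p = 0.11) and -0.52 (adjusted p = 0.16).

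Of the subunits that bind RGD sequences, as in fibronectin and vitronectin, ITGA5 was at -0.26 (adjusted p = 0.36) and ITGAV at -0.21 (adjusted p = 0.45), or -0.097 without P1 replicate 2. ITGB5, the usual partner of ITGAV in hESCs, was at 0.40 (adjusted p = 0.16), ITGB8 at -0.66 (adjusted p = 0.18) and ITGB3, at a mean of 0.10 TPM, at -0.70 (adjusted p = 0.44). ITGAE, the alpha E subunit known from lymphocytes in epithelia, whose exons overlap those of HASPIN on the other strand, was at 0.23 (adjusted p = 0.35), with 10.9 to 12.3 CPM in early and 12.7 to 14.2 CPM in late samples.

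**Figure D4:**
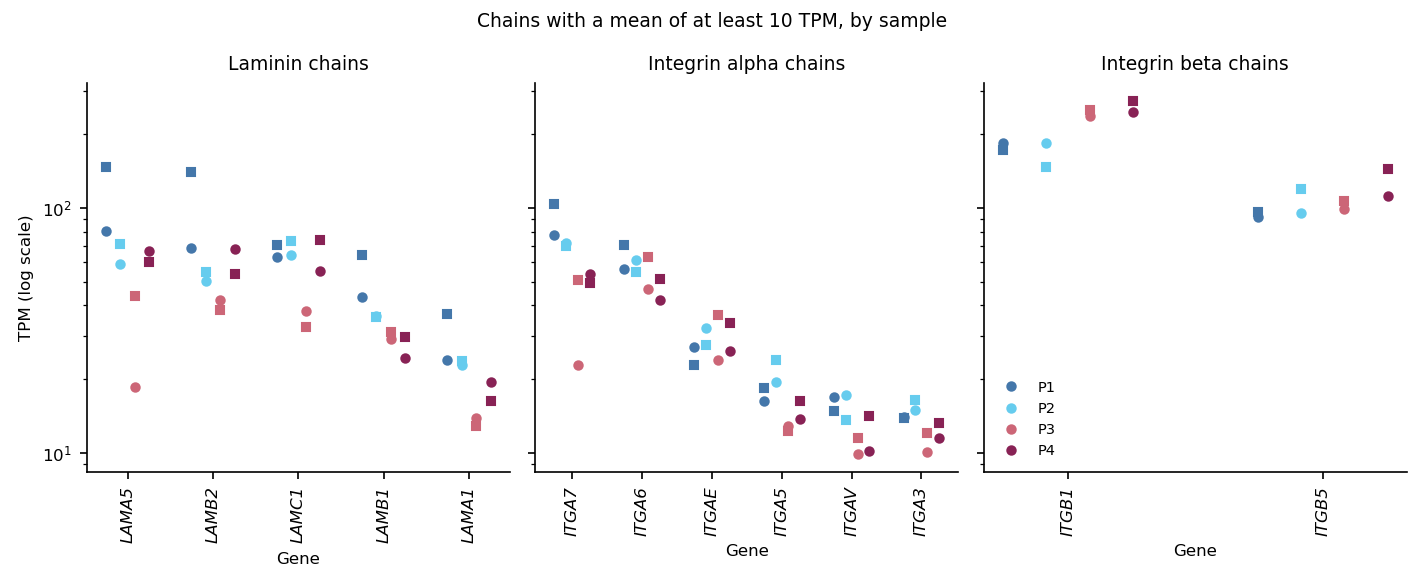
TPM of each laminin, integrin alpha and integrin beta gene with a mean of at least 10 TPM (vertical axis, log scale), by sample, with a colour for each hESC line, circles for replicate 1 and squares for replicate 2. ITGB1 is highest, at 147 to 185 TPM in P1 and P2 and 238 to 274 TPM in P3 and P4, and LAMA5 and LAMB2 lead the laminin genes.

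The member DEGs lie on several chromosomes (GENCODE release 29, GRCh38). COL8A1 spans 99638475 to 99799226 on chromosome 3, COL23A1 178237618 to 178590555 on chromosome 5, and COL15A1 98943179 to 99070792 on chromosome 9. COL12A1 (75084326 to 75206051) and LAMA4 (112108760 to 112254939) are both on chromosome 6, and COL9A3 (62816244 to 62841159) is on chromosome 20, as is LAMA5 (62307955 to 62367312). Being on chromosome 20 does not place COL9A3 or LAMA5 within the copy number gain, and whether the gain reaches them was not tested. Among the 5 libraries of low mitochondrial share, the log2 differences between late and early samples were -1.54 for COL4A6, 3.46 for COL8A1, 1.41 for LAMA4, -1.55 for COL9A3, -0.77 for LAMA5 and 0.57 for ITGB1. The class of high share has P1 replicate 2 as its only early library, so no value within it is given. Exons of LAMB1, LAMA1, LAMA4, COL4A2, COL15A1 and COL18A1 also overlap genes on the other strand. So do those of ITGA1, ITGA5, ITGA6, ITGA7, ITGAV, ITGB1 and ITGB8. Exons of ITGA1 (with PELO) and ITGB3 overlap genes on their own strand. The values of all these genes are uncertain to that extent.

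Single lines were then compared with P1, which served as the control in each, so these comparisons share its 2 samples. In P2 against P1 hESCs no member and no gene was a DEG in edgeR (background 0%), and none with DESeq2 among the members. At an unadjusted p under 0.05, 14 members (18.7%) were lower (background 6.06%) and 0 higher, for which no background is given here. The median was -0.31. Without P1 replicate 2 it was -0.0056 beside 0.0025 over all genes tested, so the lower median rested on that sample. The count of 14 was obtained with that sample included.

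In P3 against P1 hESCs 13 members (17.3%) fell (background 2.63%) and 2 (2.67%) rose (background 1.30%). COL9A3 was at -2.58 (standard error 0.28, adjusted p = 1.7e-04) and COL12A1 at -2.11 (adjusted p = 7.3e-04), and these were the only members still DEGs without P1 replicate 2. LAMA5 was at -1.99 (standard error 0.30, adjusted p = 0.0016), or -1.38 (adjusted p = 0.016) without that sample. The others that fell were COL15A1 (-3.30), COL22A1 (-2.47), the leukocyte integrin gene ITGAM (-2.45), COL11A2 (-2.22), COL27A1 (-1.81), COL4A6 (-1.76), COL23A1 (-1.69), COL13A1 (-1.52), COL14A1 (-1.34) and COL11A1 (-1.34). LAMA4 (1.77) and COL8A1 (2.84) rose. Without P3 replicate 1, 5 members were DEGs.

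In P4 against P1 hESCs 7 members (9.33%) fell (background 1.16%) and 1 (1.33%) rose (background 0.954%). Besides COL22A1, these were COL15A1 (-3.51), COL13A1 (-1.91), COL4A6 (-1.79), COL9A3 (-1.53), COL11A1 (-1.47) and COL4A5 (-1.21, standard error 0.23, adjusted p = 0.0086), and LAMA4 rose (1.68). Only COL22A1 was still a DEG without P1 replicate 2 or without P4 replicate 1, 3 members were without P4 replicate 2, and 5 without either P2 sample. LAMA5 was at -1.01 (adjusted p = 0.061).

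In P4 against P3 hESCs 1 member fell (1.33%, background 0.262%), COL22A1, and none rose (background 0.554%). The call was lost without either P4 sample. ITGAM at 2.32 (adjusted p = 0.015) and ITGB4 at 1.54 (adjusted p = 0.040) were higher in P4 without being DEGs. COL9A3 (1.04, adjusted p = 0.056) and LAMA5 (0.98, adjusted p = 0.091) did not pass.

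Other genes of the pathway came from 4 lists, whose counts stand beside a background of 1.14% of all genes tested that fell and 1.06% that rose. Of 19 tested genes for collagen modification and folding, 1 fell in the late lines, P3H2, a collagen prolyl 3-hydroxylase, with 98.0 and 94.3 TPM in P1, 46.7 and 49.7 in P2, 12.7 and 8.97 in P3 and 11.6 and 13.8 in P4 hESCs (log2 fold change -2.41, adjusted p = 0.0010). Its P2 samples lay between those of P1 and the late lines. The list's median was 0.03. None of 12 genes for maturation and cross-linking was a DEG (median -0.53).

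Of 16 other basement membrane and adhesive glycoproteins, 3 fell (median -0.35). THBS1, the adhesive glycoprotein thrombospondin 1, had 129 and 211 TPM in P1, 150 and 157 in P2, 5.35 and 16.1 in P3 and 8.89 and 22.0 in P4 hESCs, at -3.49 (adjusted p = 4.0e-05). The late samples lay far below the early ones. TNC, the matrix glycoprotein tenascin C, was at -2.12 (adjusted p = 7.2e-04) and HSPG2, the basement membrane proteoglycan perlecan, at -1.25 (adjusted p = 0.0050). None of 24 integrin activators and focal adhesion genes was a DEG between late and early lines (median 0.02).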

How the data were processed

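RNA had been made into TruSeq Stranded mRNA libraries from 8 samples of 4 hESC lines. The deposited expected counts and TPM were made by the authors, whose processing notes name FastQC, Trim Galore, STAR 2.7.3a and RSEM 1.3.3 with GRCh38. Annotation and strand setting are not given in the sources used here. All 82 members were matched by Ensembl identifier, with positions from GENCODE release 29.

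Expected counts were rounded and tested with edgeR 4.0.16 (R 4.3.3; TMM factors, filterByExpr with the 4 lines as groups, quasi-likelihood test, Benjamini-Hochberg adjustment over 19499 genes). Late against early lines used 2 groups of 4, and single lines used a model of 4 groups of 2. DESeq2 1.42.0, limma 3.58.1 on log2(TPM + 1) and log2(TPM + 0.1), other filters, size factors, sample subsets and each sample left out were alternatives. CPM used TMM factors, and standard errors were the fold change divided by the square root of F. On simulated counts for P3 and P4 against P1 and P2 (18885 genes), 100% of 85 genes changed by a log2 fold of 2 were recovered. For P4 against P1 it was 97.6%. The changed genes were drawn only from those with higher counts. All genes had the same fixed spread, with no outlying sample. The recovery therefore does not describe members at low counts or the effect of P1 replicate 2. Floors cover counting error only, whereas the standard errors also hold the spread between samples.

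The members and lists were chosen with earlier results of these data known. Named were fixed basement membrane, fibrillar and receptor genes, up to 10 DEGs of each comparison by absolute fold change, up to 5 members of each family by TPM, and up to 4 DEGs of each pathway list. The values of 1 laminin gene are not reported here, though it is included in the counts and sums.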

Additional observations from a re-analysis of the deposited data

Results flagged for a closer look

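In 12 of 80 groups of 4 samples checked, 1 sample lay apart from the other 3 by Dixon's ratio of gap to range above its 95% critical value, where chance gives about 4. P1 replicate 2 was the high sample in 6 of them. It had 228 CPM of LAMB1 against 114 to 124 in the other early samples (ratio 0.876), 422 CPM of LAMC1 against 288 to 307 (0.836) and 336 CPM of COL4A1 against 187 to 202 (0.868). It also had 152 CPM of COL4A5 against 96.6 to 102 (0.878), 1.67 CPM of COL15A1 against 0.682 to 0.756 (0.885) and 17.9 CPM of COL13A1 against 8.63 to 9.74 (0.834).

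P3 replicate 2 was low among the late samples for COL5A1, at 23.8 CPM against 36.1 to 38.5 (0.866), and for ITGA3, at 23.2 CPM against 38.5 to 42.1 (0.848). P4 replicate 1 was low for COL11A1, at 18.1 CPM against 22.0 to 22.7 (0.867), and for COL8A1, at 1.17 CPM against 1.75 to 1.90 (0.833). P2 replicate 1 was high for ITGAE, at 12.3 CPM against 10.9 to 11.1 (0.855), and low for COL8A1, at 0.0487 CPM against 0.252 to 0.258 (0.985), the latter from 2 counts against 8 or 9.

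COL22A1 differed between the late lines, with a fitted log2 fold change of -8.96 in P4 against P3 hESCs (adjusted p = 0.0017 in edgeR). That fitted value depends on the prior count because both P4 samples were at 0 counts.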

How the results depend on the processing

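For P3 and P4 against P1 and P2, the 7 member DEGs became 14 with DESeq2, 12 with no filter on low counts, 3 on either TPM scale, 15 in the 4-group model, 21 with an adjusted p under 0.05 alone and 0 with the libraries of low mitochondrial share alone, and ranged from 3 to 8 with 1 sample left out. For P3 against P1, 15 became 26 (DESeq2), 28 (no filter), 1 (either TPM scale) and 32 (adjusted p under 0.05), and 2 to 18 with 1 sample left out. For P4 against P1, 8 became 15, 13, 1 and 14 in the same order, 5 with the 4 samples of those lines alone, and 1 to 8 with 1 sample left out. For P4 against P3, 1 became 5, 5, 0 and 3, and 0 to 1 with 1 sample left out. P2 against P1 gave 0 throughout. The cause of these moves was not tested. The share of all genes called in each alternative is not given here. A change in member calls therefore cannot be told apart from a change in calls over all genes. The summed integrin ratio was 1.06 in TPM and 1.19 in CPM.

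Of 1088 single-gene values, 1078 kept their direction. With 1 sample left out, ITGA3 ranged from -0.14 to 0.10 (turned without P3 replicate 2) and COL6A1 from -0.43 to 0.11 (turned without P1 replicate 2). ITGA6 turned to -0.26 and -0.27 on the log2(TPM + 1) and log2(TPM + 0.1) scales, to -0.038 with a term for mitochondrial share, and ranged from -0.074 to 0.20 with 1 sample left out. Replicate numbers did not pair the samples (deviations of same-numbered samples correlated at -0.082 to 0.12), and fits with a replicate block gave 5 DEGs for P3 and P4 against P1 and P2, 0 for P2, 17 for P3 and 6 for P4 against P1, and 1 for P4 against P3.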
